A study of Ogataea polymorpha NCYC 495 leu1.1 with 8 samples.

Results

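FLD1 (Hp12g443, formaldehyde dehydrogenase), FGH (Hp46g94, S-formyl glutathione hydrolase), FMD (Hp16g114, formate dehydrogenase) and DAK (Hp44g478, dihydroxyacetone kinase) encode cytosolic enzymes that handle the products of methanol oxidation in the yeast Hansenula polymorpha. The 4 genes were taken by probe name from the 5999 gene probes of a 2-colour microarray. All samples came from strain NCYC 495 leu1.1, a leucine auxotroph, kept at 37 °C in batch culture. The glucose samples were cells pre-grown at length on glucose to an optical density of 2.3 at 660 nm. The methanol samples were the same cultures diluted to an optical density of 0.2 in medium with 0.5% methanol as the only carbon source and incubated for 2 h. Of each of 4 independent cultures the glucose and the methanol RNA were hybridised together on 2 arrays with the dyes Cy5 and Cy3 swapped, which gave 8 arrays, 2 spots of each probe per array and 16 ratios per gene. The culture was the replicate (n = 4).

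In methylotrophic yeasts methanol is oxidised to formaldehyde inside peroxisomes, and formaldehyde is toxic. Part of it leaves the peroxisome, reacts with glutathione in the cytosol and is oxidised stepwise to carbon dioxide: formaldehyde dehydrogenase makes S-formylglutathione, S-formyl glutathione hydrolase releases formate, and formate dehydrogenase oxidises formate, with NADH made at the first and the last step. The rest is condensed with xylulose-5-phosphate in the peroxisome to dihydroxyacetone and glyceraldehyde-3-phosphate, and cytosolic dihydroxyacetone kinase phosphorylates the dihydroxyacetone so that it can enter sugar phosphate metabolism.

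All 4 genes rose on methanol, in each of the 4 cultures and on all 8 arrays. FMD was 227-fold upregulated, FLD1 7.68-fold, DAK 2.88-fold and FGH 2.10-fold. The criteria for upregulation were a fold change above 2, an adjusted p below 0.05 (limma, Benjamini-Hochberg over all 5999 probes) and a mean log2 signal of both channels (A-value) of at least 6. By this rule 1145 genes, or 19.1% of all probes, were called up, and all 4 genes were among them. Their log2 ratios of methanol over glucose ranked 2 (FMD), 254 (FLD1), 714 (DAK) and 1137 (FGH) from the top among the 5999 genes, while the median gene was at 0.04. On each array the same amount of labelled material of both conditions was compared, so that a change of a transcript per cell cannot be told apart from a change of total RNA per cell.

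The arrays measured these genes with signals far above background. None of the 64 member spots was an outlier or saturated, and 100% were well above background in both channels, against 90.6 to 98.3% of all gene spots per array and channel. Over all genes, r between the dye-swapped arrays of the same RNA was 0.982 to 0.985. Culture 1 stood apart from the others, with r between 0.894 and 0.934 over all genes, whereas cultures 2, 3 and 4 correlated with each other at 0.968 to 0.978.

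**Figure D1:**
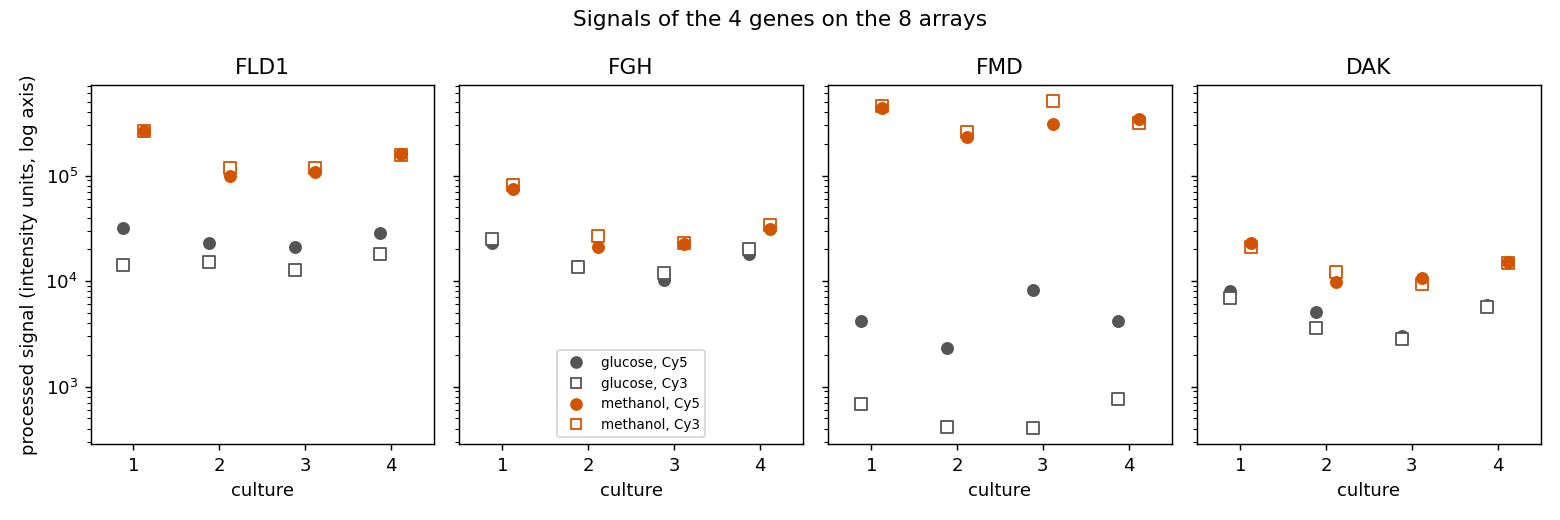
Processed signal (log axis) of the 4 genes in glucose (grey) and methanol (orange) RNA of each culture, with filled circles for Cy5 and open squares for Cy3. Every methanol point lies above the glucose points of its own culture, and the glucose points of FMD lie apart by dye, at 2307 to 8149.7 in Cy5 and 405 to 768 in Cy3.

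FLD1, which makes S-formylglutathione, was already well expressed on glucose. Its processed signal, averaged over both arrays, was 21249.6, 18683, 16452 and 22717 in glucose cells of cultures 1 to 4. It reached 265025, 108647, 113820 and 157115 in the same cultures on methanol. The groups did not overlap, since the lowest methanol signal was 4.78-fold above the highest glucose signal, and culture 1 had the highest methanol signal. The log2 ratios were 3.64, 2.54, 2.79 and 2.79, with a mean of 2.94 ± 0.48 (SD, n = 4) and a 95% confidence interval of 2.46 to 3.42. The corresponding 7.68-fold change had an interval from 5.51 to 10.7, and its adjusted p was 4.89e-05 (limma).

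FGH, the hydrolase that releases formate, had the smallest mean change of the 4 genes, although in culture 1 its ratio exceeded that of DAK. Its signal was 23843, 13821, 11135 and 19034 in glucose cells of cultures 1 to 4. On methanol it was 77510.3, 23503, 22854 and 32425. Within every culture methanol was the higher. Across cultures the signals, not scaled between arrays, overlapped, because culture 1 on glucose gave a higher signal than cultures 2 and 3 on methanol. The log2 ratios were 1.70, 0.77, 1.04 and 0.77, with a mean of 1.07 ± 0.44 (SD, n = 4), a 95% confidence interval of 0.62 to 1.51 and an adjusted p of 0.00231 (limma). The change exceeded 2-fold in 2 of the 4 cultures, those numbered 1 and 3, and the interval of the fold change ran from 1.54 to 2.86. Whether FGH passed the 2-fold limit rested on culture 1, without which the log2 ratio was 0.86. A test against the 2-fold limit itself (limma's treat) gave an adjusted p of 0.872. Cultures 3 and 4, placed in the second slide row by the scan numbering and not by the labels, had a mean log2 ratio of 0.90.

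FMD, the last enzyme on the way to carbon dioxide, gave a dim signal on glucose and a bright one on methanol. The signal was 1693, 977, 1818 and 1800.4 in glucose cells of cultures 1 to 4. In methanol cells it was 448670, 245413, 392973 and 331022. No value of the groups came near the other, with the lowest methanol signal 135-fold above the highest glucose signal. The log2 ratios were 8.05, 7.97, 7.76 and 7.52, with a mean of 7.83 ± 0.24 (SD, n = 4), a 95% confidence interval of 7.52 to 8.13 and an adjusted p of 1.98e-06 (limma). As a fold change the interval was 184 to 280. The SD between cultures was close to the median SD of all genes (0.26). On glucose the signal of FMD was still above background: the lowest raw signal, 579, was 10.5 times the local background, and the 77 negative control spots had median raw signals between 35.5 and 52.5 per array and channel.

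DAK, which phosphorylates the dihydroxyacetone of the assimilation route, rose to a similar extent in every culture. The signal was 7445, 4267, 2895 and 5772 in glucose cells of cultures 1 to 4. The methanol cells gave 22034, 11041, 10021 and 14994. The groups did not overlap, although the lowest methanol signal, of culture 3, was only 1.35-fold above the highest glucose signal, of culture 1. The log2 ratios were 1.57, 1.37, 1.79 and 1.38, with a mean of 1.53 ± 0.20 (SD, n = 4), a 95% confidence interval of 1.25 to 1.81 and an adjusted p of 7.41e-05 (limma). The 2.88-fold change had an interval from 2.37 to 3.49, and all 4 cultures exceeded 2-fold.

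Part of the spread of the signals between cultures went with the brightness of the whole channel, but not for every gene. When every channel was set to the same 75th percentile, the SD of the log2 glucose level between cultures went from 0.49 to 0.09 for FGH and from 0.59 to 0.19 for DAK. For FLD1 it went from 0.21 to 0.24 and for FMD from 0.43 to 0.52. After this scaling the glucose levels of FGH and DAK varied less between the cultures, and those of FMD did not, with culture 3 the highest. On methanol FGH kept an SD of 0.55 after scaling, from 0.82 before, and culture 1 remained the highest. The scaled log2 levels of FGH no longer overlapped, at 13.94 to 14.14 on glucose and 14.66 to 15.84 on methanol. Those of DAK were 12.01 to 12.46 on glucose and 13.54 to 14.02 on methanol.

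**Figure D2:**
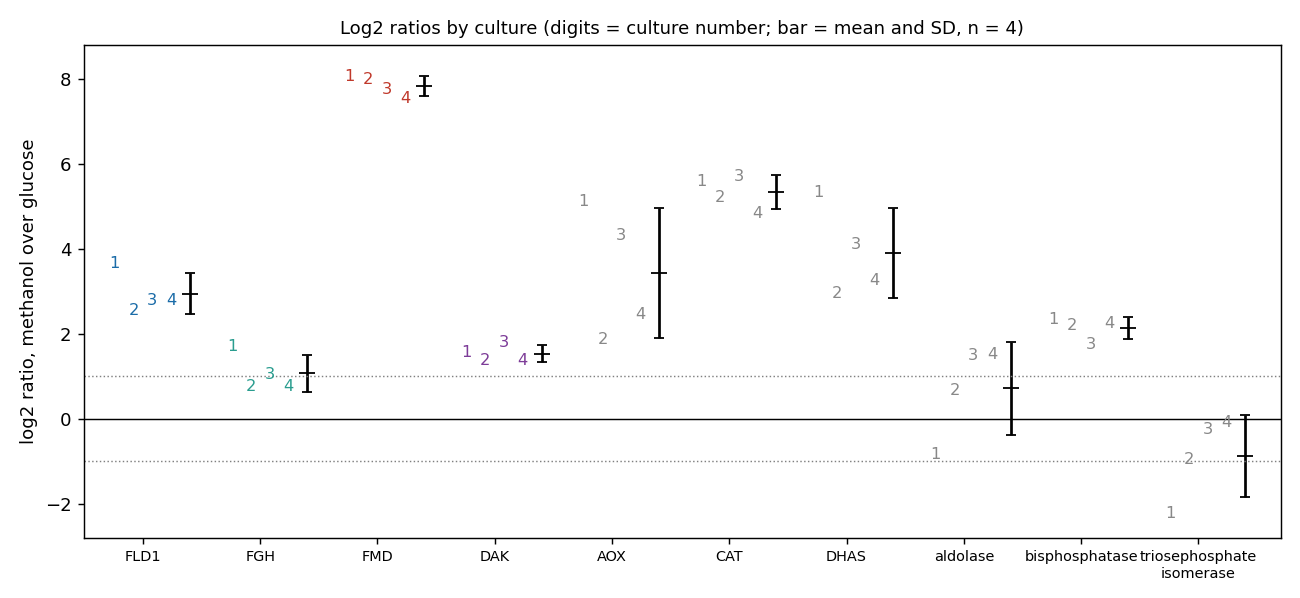
Log2 ratio of methanol over glucose in cultures 1 to 4 (digits) for the 4 genes (coloured) and 6 other enzymes of methanol and triose metabolism (grey), with the mean and SD over the 4 cultures as bars and the 2-fold limits as dotted lines. FMD lies at 7.52 to 8.05 and FGH at 0.77 to 1.70, while triosephosphate isomerase lies below 0 in all cultures.

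The consecutive enzymes of the oxidation route did not rise by equal amounts. The log2 ratio of FLD1 exceeded that of FGH by 1.87 ± 0.13 (SD, n = 4), and that of FMD exceeded FLD1 by 4.88 ± 0.43. FMD also exceeded FGH by 6.76 ± 0.35 and DAK by 6.30 ± 0.29, and FLD1 exceeded DAK by 1.41 ± 0.47. These 5 differences had the same sign in all 4 cultures and on all 8 arrays. DAK exceeded FGH by 0.46 ± 0.40, in 3 of the 4 cultures and on 7 of the 8 arrays, the exception being culture 1 with -0.14. The order of the fold changes was therefore FMD, FLD1 and then DAK and FGH, and the last pair was not separated beyond the spread of the cultures. With 4 cultures the exact two-sided sign-flip test cannot give a p below 0.13. It gave 0.13 for those 5 pairs and 0.25 for DAK and FGH, or 0.15 and 0.25 after adjustment over the 6 pairs.

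FLD1 and FGH, the glutathione-dependent pair, both had their highest ratio in culture 1. The difference between them stayed within 1.75 and 2.02 in the 4 cultures, with an SD of 0.13, against 0.48 for FLD1 and 0.44 for FGH alone. This likeness rested on culture 1: in the other 3 cultures the SD was 0.14 for FLD1, 0.16 for FGH and 0.15 for their difference, which thus varied as much as either gene. Over all 4 cultures, 28 of the 5998 other genes (0.467%) followed FLD1 over the cultures with a smaller SD of the difference than FGH did, and 59 (0.984%) followed FGH more closely than FLD1 did. FMD and DAK did not share this pattern to the same extent, as 32.8% and 41.2% of the other genes followed FLD1 more closely than they did. With 4 cultures, 1 of which stands apart over all genes, this is a description.

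**Figure D3:**
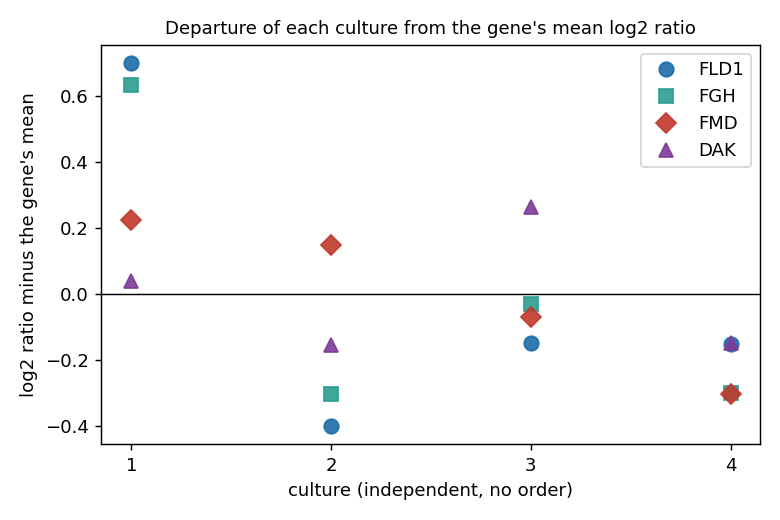
Log2 ratio of each culture minus the gene's own mean over the 4 cultures, for FLD1 (circles), FGH (squares), FMD (diamonds) and DAK (triangles). FLD1 and FGH lie together in culture 1, far above their means, and below them in the others, whereas DAK is highest in culture 3.

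The size of the ratio depended on which RNA carried which dye, and did so to very different degrees in the 4 genes. With glucose RNA in Cy5, FMD was 86.9-fold upregulated, and with methanol RNA in Cy5 it was 592-fold upregulated. Both values lie outside the interval of 184 to 280 given above, which covers only the spread between cultures. For FLD1 the values were 6.0-fold and 9.82-fold, for DAK 2.66-fold and 3.12-fold, and for FGH 2.31-fold and 1.90-fold, all within the intervals of their fold changes. The order FMD, FLD1, DAK, FGH was the same in both labellings, and with methanol RNA in Cy5 FGH was under the 2-fold limit.

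Expressed as the log2 ratio with methanol RNA in Cy5 minus that with glucose RNA in Cy5, the gap was 2.77 ± 0.56 (SD, n = 4, adjusted p = 0.00232, limma) for FMD. It was 0.71 ± 0.35 for FLD1 (adjusted p = 0.0139, limma), 0.23 ± 0.09 for DAK (adjusted p = 0.0165, limma) and -0.28 ± 0.05 for FGH (adjusted p = 0.00573, limma). The gap was positive in all 4 cultures for FMD, FLD1 and DAK and in none for FGH. Passing this test was common, as a positive gap was called for 15.2% and a negative gap for 21.1% of all genes, so that the size of the gap says more than the call. The median absolute gap over all genes was 0.13 and the 90th percentile 0.37. FMD had the largest absolute gap of the 5999 genes and FLD1 ranked 150, whereas FGH ranked 1077 and DAK 1480. The call for DAK was lost without culture 2 (gap 0.25) and without culture 3 (gap 0.22).

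The gap of FMD lay in the signal of the glucose RNA. When labelled with Cy5, glucose RNA of cultures 1 to 4 gave FMD signals of 4184, 2307, 8149.7 and 4223. The same RNA labelled with Cy3 gave 685, 414, 405 and 768. All Cy5 values were above all Cy3 values, and culture 3 had both the highest Cy5 and the lowest Cy3 signal. On average the signal in Cy5 was 7.83-fold that in Cy3, a log2 difference of 2.97 ± 0.91 (SD, n = 4, adjusted p = 5.09e-11, limma), or 2.52 without culture 3. With each channel set to its median, which takes out differences in brightness between arrays, the difference was 3.01 and the adjusted p 0.0113 (limma). The methanol RNA gave nearly the same FMD signal in both dyes, with a log2 difference of -0.20 ± 0.37 (adjusted p = 0.591, limma).

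FLD1 showed the same kind of difference on a smaller scale. In Cy5 its glucose signals were 32139, 23149.5, 21198 and 28596 in cultures 1 to 4. In Cy3 they were 14049.9, 15077.5, 12768 and 18047. The dyes did not overlap and differed by 0.80 ± 0.27 on the log2 scale (SD, n = 4, adjusted p = 5.70e-05, limma), which is 1.74-fold. With each channel set to its median, the difference was 0.85 and the adjusted p 0.0304 (limma). For glucose RNA of FGH (-0.12 ± 0.11, adjusted p = 0.673, limma) and DAK (0.22 ± 0.20, adjusted p = 0.402, limma) the dyes did not differ beyond the threshold. A signal higher in Cy5 than in Cy3 was called for glucose RNA of 3.25% of all genes, and FMD ranked 1 and FLD1 ranked 56 by the absolute difference. For methanol RNA 3.55% of all genes differed between the dyes in either direction, and none of the 4 genes was among them (limma, 0 of 4 also at an unadjusted p below 0.05).

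Among the changed genes, such differences were more frequent where the partner RNA on the same array was bright. Of 53 upregulated genes with a mean methanol signal above 100000, 51 had glucose RNA called higher in Cy5 (adjusted p below 0.05, limma). FMD and FLD1 belong to this set, whose median log2 difference was 1.16. Among the other 1092 upregulated genes, which include FGH and DAK, this call was made for 86, with a median of 0.03. The downregulated genes showed the mirror image. Of 67 with a glucose signal above 100000, methanol RNA was called higher in Cy5 for 64, with a median log2 difference of 1.00. Of the genes called neither up nor down, 14 had a methanol signal above 100000. Glucose RNA was called higher in Cy5 for 8 of them, against 49 of the other 3557. With each channel set to its median, these counts were 5 and 22. Methanol RNA was called higher in Cy5 for 7 of the same 14, against 30 of the 3557. The brightness of the partner RNA and that of the RNA itself were not separated in these genes. On the arrays with glucose RNA in Cy5, the raw Cy5 signal of FMD was 2.16 to 4.90% of the raw Cy3 signal on the same spots. On the arrays with the dyes swapped, the raw Cy3 signal was 0.123 to 0.181% of the raw Cy5 signal. The part of the bright partner signal in the glucose level of FMD was not tested.

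**Figure D4:**
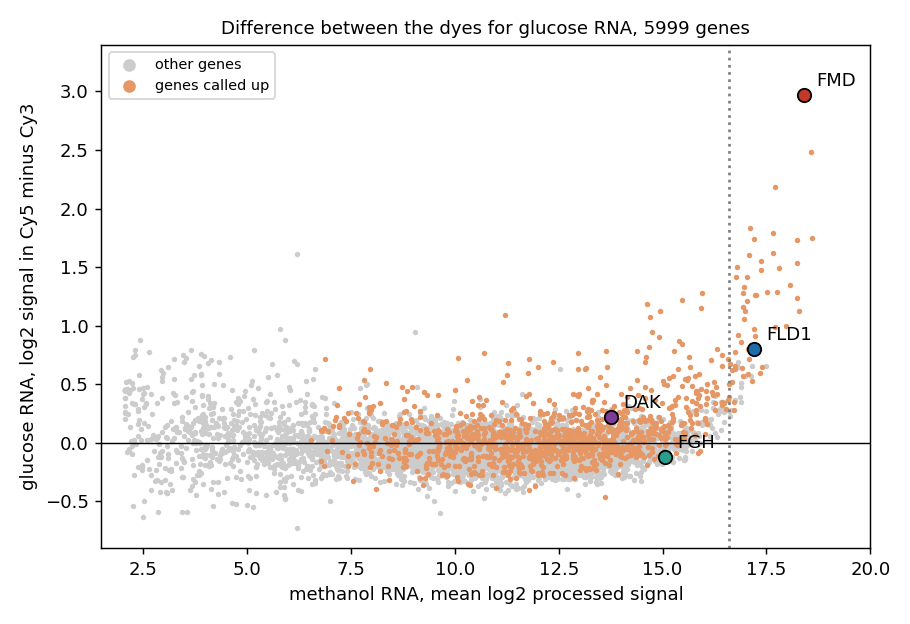
Glucose RNA of 5999 genes, log2 signal in Cy5 minus Cy3, against the mean log2 signal of methanol RNA, with upregulated genes in orange, other genes in grey and the signal limit of 100000 as a dotted line. FMD (2.97) and FLD1 (0.80) lie to the right of the limit, where nearly all genes are above 0, while DAK (0.22) and FGH (-0.12) lie to its left.

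Of 6 other enzymes of methanol and triose metabolism, 4 were called up (19.1% of all genes) and none down (limma, 21.4% of all genes). Their median log2 ratio was 2.78 against 0.04 for all genes. None was down at an unadjusted p below 0.05 (limma) either. The lowest ratio of the 6, -0.88, did not reach the 2-fold limit, so that a change of the p limit could not add a gene called down. AOX (alcohol oxidase, which makes formaldehyde from methanol) had a log2 ratio of 3.43 ± 1.53, CAT (catalase, which removes the hydrogen peroxide formed) 5.33 ± 0.40 and DHAS (dihydroxyacetone synthase, which supplies the substrate of DAK) 3.91 ± 1.06 (SD, n = 4). Fructose 1,6 bisphosphatase, which removes a phosphate from the hexose bisphosphate formed downstream of DAK, rose by 2.13 ± 0.26. Like FLD1, AOX and DHAS had their highest ratio in culture 1 (5.10 and 5.32) and their lowest in culture 2 (1.86 and 2.94). The rest of the 6 did not follow this pattern. CAT was highest in culture 3 (5.71), and fructose 1,6 bisphosphatase was highest in culture 1 (2.34) but lowest in culture 3 (1.76). Fructose 1,6-bisphosphate aldolase (-0.83) and triosephosphate isomerase (-2.22) had their lowest ratio in culture 1. Both enzymes that act on dihydroxyacetone phosphate in glycolysis as well as in gluconeogenesis missed the threshold: fructose 1,6-bisphosphate aldolase was at 0.71 ± 1.1 (adjusted p = 0.156, limma) and triosephosphate isomerase at -0.88 ± 0.97 (adjusted p = 0.0661, limma).

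A further 3 genes act on dihydroxyacetone or glycerol by annotation, and they were chosen from a list already limited to changed genes, so that their direction adds no independent evidence. Hp27g557, whose closest database match is DAK, had a log2 ratio of 2.77 ± 0.73, but with an A-value of 6.28 it lay just above the minimum, whereas DAK had an A-value of 13.0. Glycerol dehydrogenase (Hp44g264) was at 1.85 ± 0.63 and glycerol kinase (Hp47g392) at 2.29 ± 0.20 (SD, n = 4).

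The genes with the next lower and the next higher number on the same contig were taken as neighbours in number, and whether the numbers follow the order along the chromosome was not checked. Of these 8, 2 were called up (19.1% of all genes), 1 was called down (21.4% of all genes), and the median log2 ratio was 0.58. Hp46g95, numbered above FGH, rose by 1.60 ± 0.44 and Hp16g117, numbered above FMD, by 1.17 ± 0.32. Hp16g109, numbered below FMD, fell by 2.13 on the log2 scale. Hp12g445, numbered above FLD1, was at 2.50 ± 0.66 but had an A-value of 4.2, under the minimum, and Hp44g477 (PAK1), numbered below DAK, was at 0.78 ± 0.66.

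Among all genes, those with the ratio pattern most like each of the 4 were found by the root mean square difference of the log2 ratio over the 8 arrays. Nearest to FLD1 were Hp12g351 (closest match TFS1 of Saccharomyces cerevisiae; 0.31) and Hp42g361 (similar to an aspartate transaminase; 0.34). Nearest to FGH were Hp44g18 (PHO1, a repressible acid phosphatase; 0.13) and Hp5g187 (similar to a sugar transport protein; 0.13). Nearest to DAK were Hp18g118 (a hypothetical protein; 0.12) and Hp28g65 (similar to an isoprenoid synthase; 0.13). FGH and DAK lay in crowded ranges, with 526 and 505 genes within 0.5, and FLD1 had 19. No gene came within 0.5 of FMD, and the nearest, Hp27g608 (a sugar transporter-like protein; 0.82) and Hp27g562 (similar to a beta-glucosidase; 0.83), had mean log2 ratios of 7.56 and 7.69 with smaller gaps between the labellings, 1.32 and 1.37.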

How the data were processed

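RNA of H. polymorpha NCYC 495 leu1.1 from 4 cultures, before and 2 h after transfer from glucose to methanol, was measured on 8 Agilent 2-colour arrays. The authors deposited the scanner output, whose processed and mean signals are intensity values per spot, made with Feature Extraction 9.5 (no background subtraction, spatial detrending, per the study's methods, and the software's dye normalisation). The LogRatio column deposited by the authors is log10 of Cy5 over Cy3. The deposited table of log10 ratios matched the LogRatio turned to methanol over glucose (largest difference 0) once its rows were moved by 5 positions, and 5 rows then had no value. Its columns had medians between 0 and 0.00159. It served only as an alternative. Control spots and outlier spots were left out.

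Here the log2 ratio of processed signals, methanol over glucose with the dyes assigned by the labels, was averaged over 2 spots and then over the 2 dye-swapped arrays of a culture. An intercept was fitted with limma 3.58.1 in R 4.3.3 (lmFit, eBayes, Benjamini-Hochberg over 5999 probes). The same fit was applied to the difference between the labellings and, for each RNA, to Cy5 minus Cy3. Differences between the 4 genes were compared by an exact sign-flip test. The fit was tested on simulated data. Glucose and methanol RNA of the same number come from the same culture per the labels, so that the ratio pairs them. Their departures from the group means correlated (r from 0.247 to 0.453). Both RNAs of a culture were read on the same spots and arrays, so that this r cannot show whether they share a culture.

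The genes named were the 4 genes, 6 other pathway enzymes, the neighbours in number, 4 related genes (PAK1, which is also a neighbour, among them) and the 2 nearest genes by pattern. Members, lists and tests were chosen with earlier results of these data known. The array's number of spots and cultures limits the precision. Of the 5999 probe names 0 matched the RefSeq table of 5233 genes, so that no genome position or sequence was used here. Gene names are those of the study's annotation. Alternatives covered normalisation, centring, dye orientation, filters, tests, slide row, pairing and single cultures. The slide row was inferred from the numbering of the scans, because the labels do not give it.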

Additional observations from a re-analysis of the deposited data

Results flagged for a closer look

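For each of the 4 genes the ratio differed between the labellings by a test of the difference itself. The gap on the log2 scale, methanol RNA in Cy5 minus glucose RNA in Cy5, was 2.77 for FMD, 0.71 for FLD1, 0.23 for DAK and -0.28 for FGH. Such a call was common, with a positive gap in 15.2% and a negative gap in 21.1% of all genes. For DAK the call was lost without culture 2 and without culture 3.

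A culture lay far from the other 3 in 2 of the 32 sets of 4 values examined, where chance marks about 1 set in 20 by Dixon's criterion. Glucose cells of culture 2 had the lowest FMD level, 9.93 on the log2 scale. With every channel set to the same 75th percentile, the levels were 10.32, 10.16, 11.34 and 10.53 in cultures 1 to 4. Culture 2 was then close to culture 1, and culture 3 was the highest. In culture 3 the FMD signal of glucose RNA was higher in Cy5 than in Cy3 by 4.33 on the log2 scale.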

How the results depend on the processing

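Under the 25 alternatives to the ratio of methanol over glucose, FLD1 (2.58 to 3.30), FMD (6.44 to 9.21) and DAK (1.41 to 1.64) stayed called, and FGH stayed called in 21. FGH was at 0.93 on arrays with methanol RNA in Cy5 and at 0.90 in the second slide row. Treat against the 2-fold limit left FGH at 1.07, not called, and called 760 genes up. Leaving out 1 culture at a time gave 0.86 to 1.17 for FGH, lost without culture 1. Without a replicate block, with channels as separate samples, 1149 genes were up and FLD1, FGH, FMD and DAK, at 2.94, 1.07, 7.83 and 1.53, stayed called, so that the pairing changed no call. The gap between labellings kept its sign throughout. With the 2 cultures of the first slide row it missed the threshold for FLD1 (0.77), FGH (-0.28) and DAK (0.26). With those of the second it did so for FLD1 (0.65), FGH (-0.28), FMD (3.09) and DAK (0.20). These fits hold fewer cultures. Leaving out 1 culture gave 0.20 to 0.27 for DAK. For glucose RNA in Cy5 minus Cy3, alternatives added after seeing the data kept FMD between 2.52 and 3.14 and FLD1 between 0.67 and 0.92, and normexp, loess and Aquantile raised DAK past the threshold (0.29, adjusted p = 0.0138, limma); the cause was not tested. The 6 differences between genes kept their signs.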
